A study of Rattus norvegicus with 48 samples.

Results

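The genes described here are interferon-stimulated genes of the rat, a list of 43 names drawn up with earlier results of these data known. Of the 43, 40 had a row of that name in the deposited table, and the 38 with a mean of at least 0.2 CPM (the usual scaling of read counts to the library total) over the 48 libraries were used, out of 32883 rows. Isg15, Rtp4 and Psmb10 had no row of that name and were not analysed here. Oas2, at a mean of 0.168 CPM, lay just outside the minimum and Tap2, at 0.0192 CPM, far below it. Ddx58, at 0.444 CPM, and Dtx3l, at 0.571 CPM, were the members nearest above it. The names were proposed from the comparisons of D1 neurons at withdrawal day 40, so the values in those comparisons are a description and support nothing.

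RNA on GFP-tagged ribosomes was purified with GFP antibodies (TRAP, translating ribosome affinity purification) from nucleus accumbens punches of 48 adult male and female rats. D1:Cre rats direct the tag to medium spiny neurons with the dopamine D1 receptor, and A2a:Cre rats to those with the adenosine A2a and dopamine D2 receptors. For each genotype, 8 rats that took saline and 8 that took cocaine by self-administration over 10 sessions were killed on withdrawal day 1, and 8 that took cocaine on day 40. There was no saline group at day 40, the labels do not say which libraries came from males, and the input RNA was not analysed here. Every group carries Cre, and no group without it is among these libraries.

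Interferons bind paired receptors on the cell surface, and the kinases JAK1 and TYK2 then phosphorylate STAT proteins, STAT2 among them. With IRF9, these form a complex that binds the interferon-stimulated response element in promoters and raises transcription of many genes at once. In brain tissue, microglia, endothelium, astrocytes and neurons can all respond. The products block viral replication, sense viral RNA, tag proteins with ISG15 or ADP-ribose, and feed peptides to class I histocompatibility molecules.

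The element was looked for in the promoters of the members. The list is of genes known as interferon-stimulated, so a share of matches above that of all windows follows from the choice and supports nothing. RefSeq promoter windows of assembly GRCr8, 250 bases before to 50 after each start, were at hand for 31 of the 38 members. The core GAAANNGAAA, searched on both strands, lay in 19 of the 31 windows (61.3%), against 3.92% of all 33469 windows. The gamma-activated site TTCNNNGAA, which reads the same on both strands, lay in 8 (25.8%), against 8.87% of all windows, and 6 windows held both. A match is a description of the letters, not a site shown to bind anything. The 250 bases before the start are printed for 6 members of different roles, 5′ to 3′ on the strand of the gene, with matches to the response element core in capitals. They show how near the start the match lies, where it is doubled or tripled, and where it reads on the other strand.
Ifih1 (chr3:67683969-67684218, minus strand): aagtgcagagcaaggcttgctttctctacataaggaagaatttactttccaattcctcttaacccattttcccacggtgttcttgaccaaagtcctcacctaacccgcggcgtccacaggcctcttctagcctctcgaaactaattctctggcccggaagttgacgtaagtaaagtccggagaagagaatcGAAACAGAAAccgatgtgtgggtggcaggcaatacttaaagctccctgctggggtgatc
Irf7 (chr1:205800024-205800273, minus strand): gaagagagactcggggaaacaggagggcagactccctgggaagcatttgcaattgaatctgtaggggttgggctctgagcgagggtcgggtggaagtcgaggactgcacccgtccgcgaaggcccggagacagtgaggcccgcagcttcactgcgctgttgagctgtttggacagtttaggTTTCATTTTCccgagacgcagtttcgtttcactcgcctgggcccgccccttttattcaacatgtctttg
Samd9 (chr4:32138959-32139208, minus strand): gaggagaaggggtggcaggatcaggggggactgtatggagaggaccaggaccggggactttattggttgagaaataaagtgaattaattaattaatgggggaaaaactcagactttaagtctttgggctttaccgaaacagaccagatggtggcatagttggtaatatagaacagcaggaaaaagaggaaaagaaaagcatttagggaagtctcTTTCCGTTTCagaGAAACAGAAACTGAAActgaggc
Trim21 (chr1:166399372-166399621, minus strand): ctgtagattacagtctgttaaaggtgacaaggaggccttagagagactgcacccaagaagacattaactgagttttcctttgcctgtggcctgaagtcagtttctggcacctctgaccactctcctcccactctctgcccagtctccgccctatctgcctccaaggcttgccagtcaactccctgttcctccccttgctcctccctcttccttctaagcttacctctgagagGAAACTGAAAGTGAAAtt
B2m (chr3:129549080-129549329, plus strand): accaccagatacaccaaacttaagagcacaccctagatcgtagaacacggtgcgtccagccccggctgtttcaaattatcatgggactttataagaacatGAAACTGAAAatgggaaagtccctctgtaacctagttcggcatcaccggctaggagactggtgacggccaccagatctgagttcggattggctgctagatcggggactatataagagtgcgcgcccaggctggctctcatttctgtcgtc
Lgals3bp (chr10:104127849-104128098, minus strand): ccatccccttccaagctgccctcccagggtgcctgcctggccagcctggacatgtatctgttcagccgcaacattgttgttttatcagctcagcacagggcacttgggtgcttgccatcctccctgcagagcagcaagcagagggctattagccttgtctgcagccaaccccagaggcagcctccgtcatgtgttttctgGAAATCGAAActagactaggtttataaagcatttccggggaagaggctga
In Trim21, 2 overlapping matches began 18 bases before the start. Samd9 had 3 matches, the first listed at 36 bases, of which 1 reads on the other strand, as does the only match of Irf7 at 69 bases. Ifih1 had its match at 59 bases, Lgals3bp at 50 and B2m at 150. No match lay in the window of Mx1. In D1 neurons at day 40 against day 1, the median log2 difference was -1.34 over the 19 members with a match (-3.07 to -0.64) and -1.14 over the 12 without (-3.81 to -0.16), so the ranges overlapped. Between D1 and A2a neurons at day 40 the medians were -1.52 with a match and -1.54 without.

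The libraries held 5.29 to 55.1 M counts each, 47 of 48 at least 24.5 M; the smallest was A2a cocaine day 1 replicate 7. The neuron markers went with the labels: Drd1 and 3 other D1 markers summed to a median of 1541 to 1607 CPM in the D1 groups and 262 to 305 CPM in the A2a groups, and 5 D2/A2a markers summed to 1287 to 1437 CPM in the D1 groups and 10027 to 10750 CPM in the A2a groups. Sample descriptions carry a middle number that was 85 in all 8 D1 cocaine day 40 libraries and 88 in all 8 A2a cocaine day 40 libraries, and 89, 91 or 92 in the day 1 libraries. Day 40 and these numbers therefore cannot be told apart, and neither can neuron type at day 40 and the numbers 85 and 88.

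A score for each library, the median over the 38 members of log2 CPM minus the gene's mean over 48 libraries, gave an outline. D1 cocaine day 40 scores ran from -1.63 to -0.58, with a median of -1.07. Medians of the other groups were 0.59 in D1 saline, 0.17 in D1 cocaine day 1, 0.25 in A2a saline, -0.02 in A2a cocaine day 1 and 0.44 in A2a cocaine day 40. The D1 day 40 group was low in every library and narrow, with an SD of 0.31 against 0.47 to 0.86 elsewhere. It did overlap with other groups, because 4 day 1 libraries also lay below -0.58: D1 cocaine day 1 replicates 1 and 2 at -1.22 and -1.15, and A2a cocaine day 1 replicates 1 and 7 at -1.56 and -0.79.

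**Figure D1:**
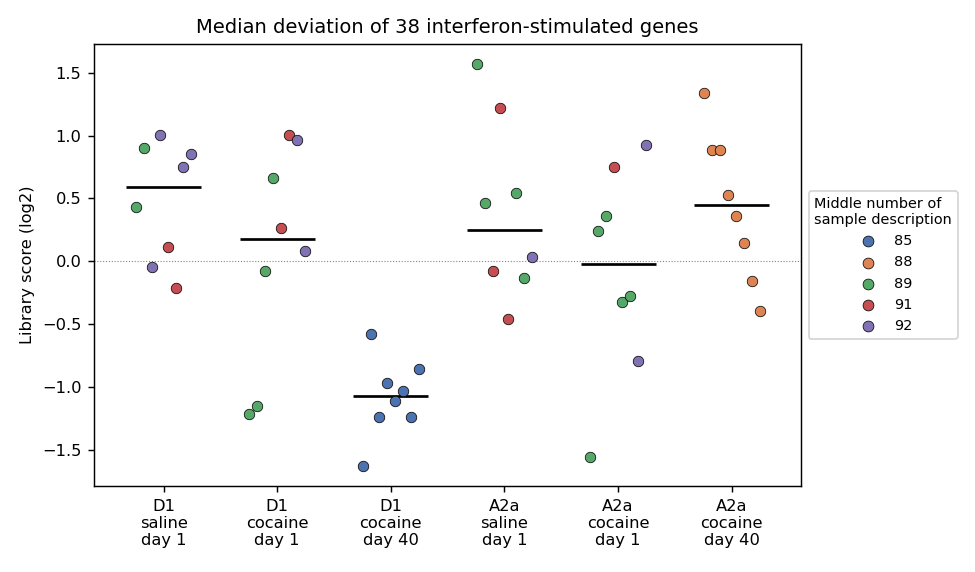
Library score (y axis, log2, the median deviation of 38 members from their means over 48 libraries) for each of 6 groups (x axis); each point is a library, coloured by the middle number of its sample description, and bars are medians of 8. All 8 D1 cocaine day 40 libraries lie between -1.63 and -0.58, and 2 D1 cocaine day 1 libraries lie among them at -1.22 and -1.15.

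Levels of the members moved together from library to library within groups. After group means were removed, the median Pearson r over the 703 pairs of members was 0.69 across 48 libraries, and 1 pair had an r below 0; the libraries share depth and tissue make-up, so this is a description. Tap1 followed the other members most closely (r = 0.945 with their median) and Ddx58 least (0.277). Within the D1 cocaine day 40 libraries the median pairwise r was 0.238, against 0.645 to 0.839 within each of the other 5 groups. Cmpk2, Stat2 and Xaf1 varied least within groups, with SDs of 0.21, 0.33 and 0.38 on the log2 scale, and Mx1 most, with 1.61.

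**Figure D2:**
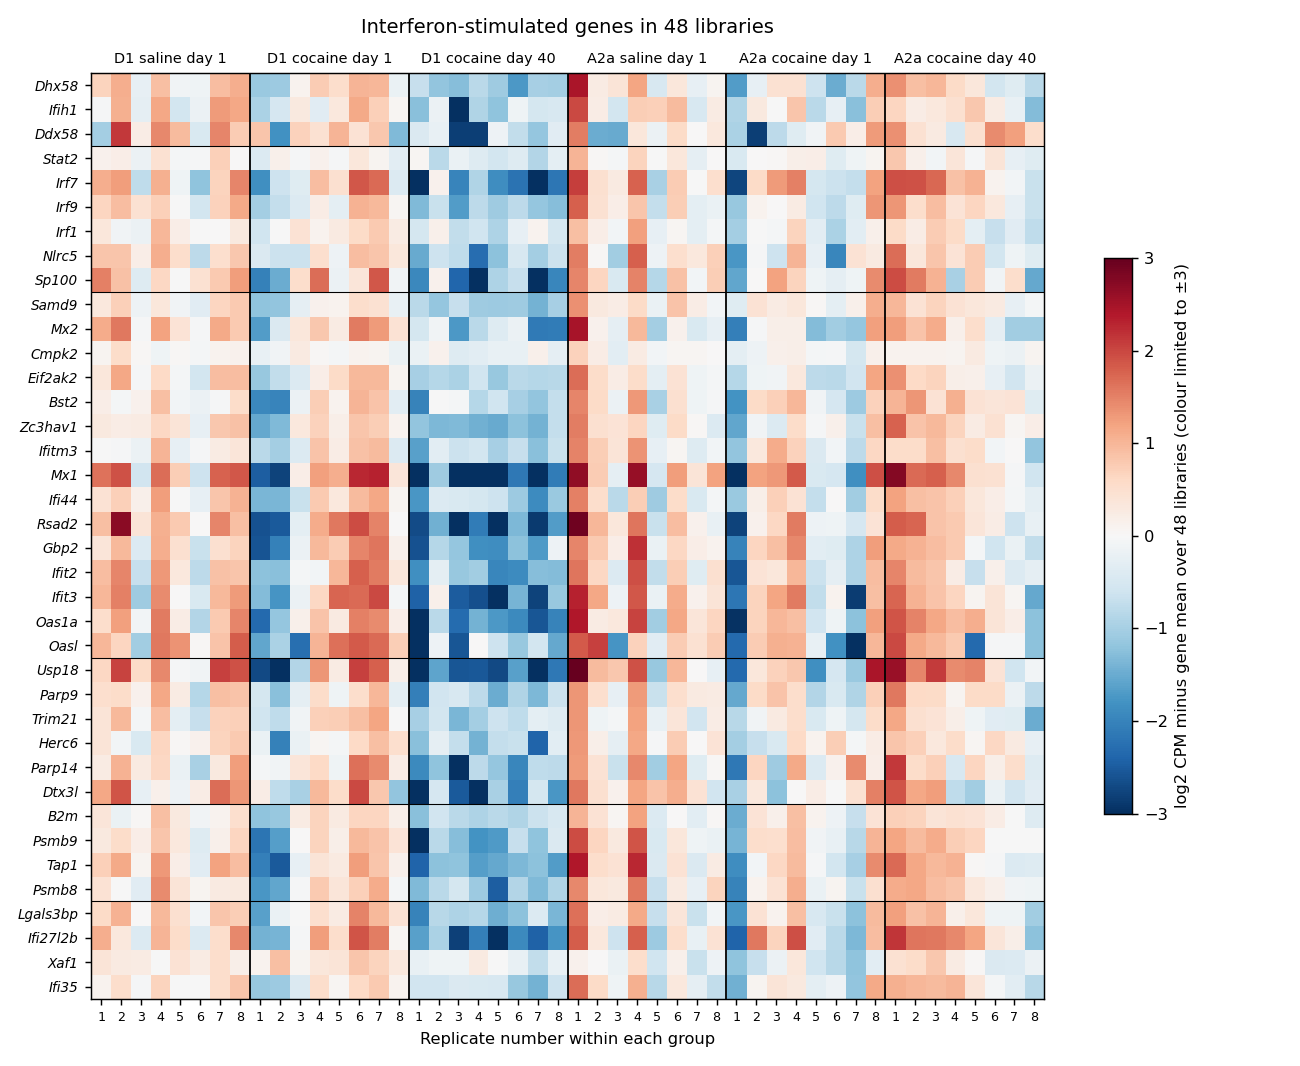
Heat map of 38 members (rows, grouped by role from sensors at the top to other genes at the bottom) in 48 libraries (columns, by group and replicate number); colour is log2 CPM minus the gene's mean over 48 libraries, limited to ±3. The D1 cocaine day 40 columns are blue in nearly every row, with 33 to 38 members below their mean in each library, and libraries of other groups with 33 or more below are D1 cocaine day 1 replicates 1 and 2, A2a cocaine day 1 replicates 1, 5 and 7, A2a saline replicate 5 and A2a cocaine day 40 replicate 8.

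In D1 neurons after cocaine, all 38 members used were lower at day 40 than at day 1 in the edgeR estimates, by a median log2 difference of -1.39 and over a range of -3.81 to -0.16, while the median of all 15580 genes tested was -0.01. Mx1, Usp18 and Rsad2 had the largest differences, and Cmpk2, Xaf1 and Stat2 the smallest. By edgeR's quasi-likelihood test with Benjamini-Hochberg adjustment at 0.05, 21 of the 38 were called lower and 0 higher, where 1.16% of all genes were called lower and 0.7% higher. Only Parp14 had groups that did not overlap, which held for 0.116% of all genes. Parp14 was near the floor in D1 cocaine day 40, at 0 to 0.465 CPM. It reached the 0.265 CPM of the low-count filter in 5 of those 8 libraries. Against D1 saline, the median difference was -1.66 (-4.06 to -0.26); 31 of 38 were called lower and 0 higher (1.53% and 1.07% of all genes) and in 19 the groups did not overlap (0.655% of all genes). The names came from these contrasts, so nothing is read from the counts. The count at day 40 against day 1 also rested on a few libraries: it was 8 without D1 cocaine day 1 replicate 6, 9 without replicate 7, 12 without replicate 4, and 28 without replicate 2, and 12 and 13 without D1 cocaine day 40 replicates 7 and 5. In bulk RNA of this kind, fewer cells of a type and less RNA per cell cannot be told apart.

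**Figure D3:**
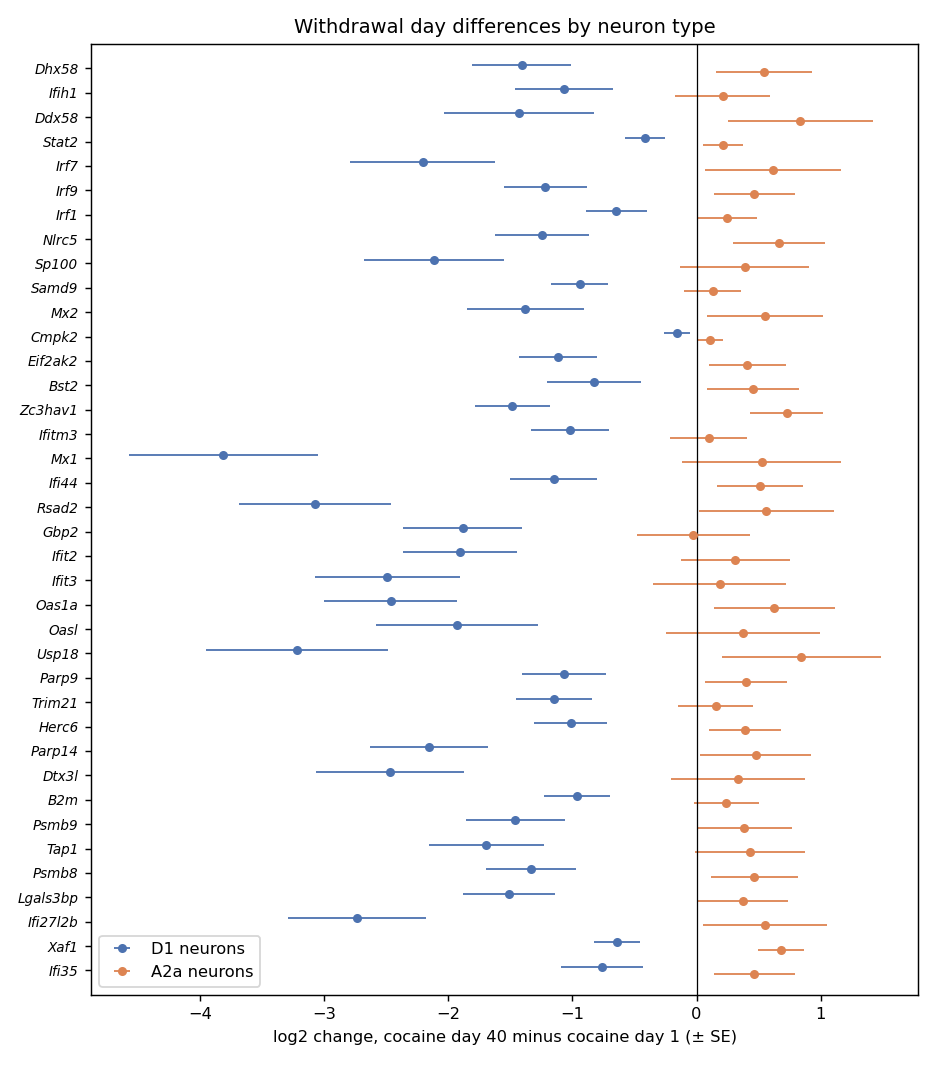
Log2 change from cocaine day 1 to cocaine day 40 (x axis, with SE of the edgeR fit) for 38 members (y axis, by role) in D1 neurons (blue) and A2a neurons (orange), 8 libraries a group. Every D1 estimate is below 0, from -3.81 for Mx1 to -0.16 for Cmpk2, and 37 of 38 A2a estimates are above 0, up to 0.85 for Usp18.

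Among the cytosolic RNA sensors, Dhx58, whose product LGP2 regulates the other sensors, had a lowest, median and highest library of 1.70, 2.73 and 3.50 CPM in D1 cocaine day 40. It stood at 2.62, 7.16 and 11.7 CPM in D1 cocaine day 1 and at 4.78, 9.92 and 12.1 CPM in D1 saline, so the day 40 group lay wholly below saline and overlapped with day 1. Its log2 difference was -1.41 ± 0.40 (SE) against day 1 and -1.70 ± 0.40 against saline. Against day 1, 0 of the 3 sensors were called lower, where 1.16% of all genes were, and against saline 3 of 3 were (1.53% of all genes). Ifih1, which encodes the sensor of long double-stranded RNA MDA5, ran at 0.053, 0.587 and 0.891 CPM in D1 cocaine day 40, 0.483, 1.12 and 2.23 CPM in D1 cocaine day 1, and 0.654, 1.54 and 2.46 CPM in D1 saline. These groups overlapped, and its differences were -1.07 ± 0.39 and -1.48 ± 0.39. Ddx58, which encodes RIG-I, the sensor of RNA with a 5′ triphosphate, was near the floor: 0, 0.20 and 0.29 CPM in D1 cocaine day 40, 0.0543, 0.515 and 0.717 CPM in D1 cocaine day 1, and 0.134, 0.636 and 1.60 CPM in D1 saline, with overlap. It passed the filter on low counts mainly through the other groups, since the filter's 0.265 CPM was reached in 31 of 48 libraries in all and in 2 of the 8 D1 day 40 libraries.

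Among the transcription factors, Irf7, which drives the later, amplified phase of type I interferon production, and Sp100 had the largest differences. For Irf7 the lowest, median and highest libraries were 0.456, 3.05 and 14.1 CPM in D1 cocaine day 40, 3.59, 14.0 and 47.0 CPM in D1 cocaine day 1, and 5.56, 23.9 and 36.0 CPM in D1 saline. The 14.1 CPM came from D1 cocaine day 40 replicate 2, and the group overlapped with both others; the log2 differences were -2.21 ± 0.58 and -2.24 ± 0.58. Irf9, the DNA-binding part of the interferon-stimulated complex, ran at 4.03, 5.96 and 8.09 CPM in D1 cocaine day 40, 6.35, 12.0 and 26.7 CPM in D1 cocaine day 1, and 8.87, 20.7 and 28.3 CPM in D1 saline. The day 40 libraries lay wholly below saline, with differences of -1.22 ± 0.33 from day 1 and -1.65 ± 0.34 from saline. Stat2, which binds IRF9 in that complex, had small differences: it ran at 15.6, 21.9 and 29.7 CPM in D1 cocaine day 40, 21.4, 29.2 and 36.5 CPM in D1 cocaine day 1, and 25.2, 30.1 and 46.9 CPM in D1 saline, with overlap and differences of -0.41 ± 0.16 and -0.58 ± 0.16. Irf1, an early factor that interferon gamma also induces, ran at 2.72, 3.65 and 5.87 CPM, 3.47, 6.25 and 9.02 CPM, and 4.64, 5.69 and 10.6 CPM in the same order, with overlap. It had differences of -0.65 ± 0.24 and -0.62 ± 0.24, and was called in neither contrast. Nlrc5, the transactivator of class I genes, and Sp100, a nuclear body protein, differed from day 1 by -1.24 ± 0.38 and -2.11 ± 0.56, and from saline by -1.62 ± 0.38 and -2.29 ± 0.57. Sp100 was near the floor in D1 cocaine day 40, at a median of 0.125 CPM. It reached the filter's 0.265 CPM in 3 of those 8 libraries, so it passed mainly through the other groups. Stat2 and Nlrc5 were called against saline but not against day 1.

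The antiviral effectors ran from the largest difference among the members used, that of Mx1, to the smallest, that of Cmpk2. Mx1, a dynamin-like GTPase that traps viral nucleocapsids, was present at 0.116, 0.427 and 2.00 CPM in D1 cocaine day 40. It stood at 0.571, 7.27 and 21.0 CPM in D1 cocaine day 1 and 2.75, 13.4 and 16.1 CPM in D1 saline. The day 40 group lay wholly below saline, and the overlap with day 1 came from replicates 1 and 2 of that group at 0.713 and 0.571 CPM. Log2 differences of Mx1 were -3.81 ± 0.76 and -4.06 ± 0.77. Rsad2, which encodes viperin, an enzyme that makes a chain-terminating nucleotide, ran at 0.186, 0.645 and 1.35 CPM in D1 cocaine day 40, 0.529, 5.65 and 13.9 CPM in D1 cocaine day 1, and 3.57, 6.65 and 23.2 CPM in D1 saline. It too lay wholly below saline, with differences of -3.07 ± 0.61 and -3.52 ± 0.62.

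Cmpk2, a mitochondrial nucleotide kinase and the neighbour of Rsad2 in the RefSeq gene order, did not go with it. Its libraries ran at 19.4, 21.8 and 28.1 CPM in D1 cocaine day 40, 21.8, 25.3 and 30.7 CPM in D1 cocaine day 1, and 23.2, 26.4 and 37.0 CPM in D1 saline. The groups overlapped, although the day 40 median lay at the lowest day 1 library and below the lowest saline library; the differences were -0.16 ± 0.10 and -0.26 ± 0.10, neither called.

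Zc3hav1, the zinc-finger antiviral protein that binds CpG-rich viral RNA, ran at 2.85, 3.23 and 4.99 CPM in D1 cocaine day 40, 2.81, 9.76 and 14.7 CPM in D1 cocaine day 1, and 6.91, 10.4 and 15.1 CPM in D1 saline. Again the day 40 group was below saline in every library and met day 1 only in replicates 1 and 2, at 2.81 and 3.23 CPM; the differences were -1.48 ± 0.30 and -1.71 ± 0.30. Samd9, in human cells a restriction factor of poxviruses, ran at 13.8, 17.6 and 22.5 CPM in D1 cocaine day 40, 15.9, 35.2 and 52.6 CPM in D1 cocaine day 1, and 29.1, 45.9 and 62.9 CPM in D1 saline. Its differences, -0.94 ± 0.23 and -1.36 ± 0.23, had among the smallest errors of the members, and it too lay wholly below saline. Mx2, the second Mx GTPase, ran at 6.27, 17.4 and 25.6 CPM, 8.60, 35.9 and 81.9 CPM, and 26.8, 53.8 and 83.1 CPM in the same order. It lay wholly below saline, with differences of -1.38 ± 0.47 and -1.67 ± 0.47, of which only that from saline was called.

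Of the other effectors, the oligoadenylate synthetase Oas1a, which makes its messenger from ATP on meeting double-stranded RNA, differed from day 1 by -2.47 ± 0.54, and the neighbours Ifit3 and Ifit2, which bind foreign RNA, by -2.49 ± 0.58 and -1.91 ± 0.46. The guanylate-binding protein Gbp2 differed by -1.88 ± 0.48. Bst2, which tethers budding virus, Ifitm3, which blocks fusion at endosomes, Eif2ak2, the kinase PKR, Ifi44 and Oasl lay between -0.83 and -1.93 and were not called against day 1. In all, 8 of 15 effectors were called lower against day 1 (1.16% of all genes were) and 11 of 15 against saline (1.53% of all genes).

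Of the genes for ubiquitin-like and ADP-ribosyl modification, Usp18, the protease that strips ISG15 from proteins and damps the interferon receptor, changed most. It ran at 0.127, 0.880 and 1.76 CPM in D1 cocaine day 40, 0.598, 6.28 and 22.6 CPM in D1 cocaine day 1, and 5.00, 11.5 and 22.5 CPM in D1 saline. All day 40 libraries were below all saline libraries, and the differences were -3.22 ± 0.73 and -3.78 ± 0.74. Trim21, a ubiquitin ligase that binds antibody inside cells, ran at 1.03, 1.70 and 2.24 CPM in D1 cocaine day 40, 1.60, 3.66 and 6.36 CPM in D1 cocaine day 1, and 1.68, 4.06 and 5.48 CPM in D1 saline. Groups overlapped at the low end, with differences of -1.15 ± 0.31 and -1.18 ± 0.31. Parp9 and Dtx3l, whose products form an ADP-ribosylating ubiquitin ligase, overlap in the RefSeq annotation, and the strand setting of the counting is not given, so their counts may share reads. Parp9 ran at 1.34, 3.19 and 4.08 CPM, 2.36, 5.02 and 11.5 CPM, and 3.17, 8.32 and 12.8 CPM in the same order. Its groups overlapped, and it had differences of -1.07 ± 0.34 and -1.51 ± 0.34, and Dtx3l, at a median of 0.0697 CPM in D1 cocaine day 40, differed by -2.47 ± 0.60 and -2.90 ± 0.60. Dtx3l reached the filter's 0.265 CPM in 2 of those 8 day 40 libraries, so it passed mainly through the other groups. Herc6, which attaches ISG15 in mice, differed from day 1 by -1.01 ± 0.29. Parp9 and Herc6 were called against saline but not against day 1.

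All 4 antigen-processing members were called lower in both D1 contrasts, where 1.16% and 1.53% of all genes were. Each of the 4 lost its call against day 1 when some single library was left out, and B2m also lost its call against saline. B2m, the light chain of class I molecules and the member with the most counts, ran at 138, 190 and 237 CPM in D1 cocaine day 40, 143, 393 and 522 CPM in D1 cocaine day 1, and 287, 378 and 619 CPM in D1 saline. Its day 40 group lay wholly below saline, and day 1 replicates 1 and 2, at 143 and 150 CPM, lay inside the day 40 range; the differences were -0.96 ± 0.26 and -1.05 ± 0.26. Tap1, a subunit of the peptide transporter, ran at 1.27, 2.52 and 2.94 CPM in D1 cocaine day 40, 1.17, 8.05 and 16.5 CPM in D1 cocaine day 1, and 5.48, 12.3 and 17.2 CPM in D1 saline, with differences of -1.69 ± 0.47 and -2.28 ± 0.47. Psmb9, a catalytic subunit of the immunoproteasome that lies beside Tap1, ran at 0.761, 3.43 and 6.01 CPM in D1 cocaine day 40, 1.75, 10.1 and 16.2 CPM in D1 cocaine day 1, and 6.26, 10.2 and 14.7 CPM in D1 saline. Both had groups wholly below saline; Psmb9 differed by -1.46 ± 0.40 and -1.60 ± 0.40, and its neighbour Psmb8 by -1.33 ± 0.36 and -1.51 ± 0.36.

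Outside these roles, Ifi27l2b, of a family of small hydrophobic interferon-induced proteins, ran at 0.468, 1.46 and 3.00 CPM in D1 cocaine day 40, 2.19, 7.35 and 22.0 CPM in D1 cocaine day 1, and 4.41, 8.56 and 16.0 CPM in D1 saline. It lay wholly below saline and differed by -2.74 ± 0.55 and -2.65 ± 0.55. Lgals3bp, a secreted glycoprotein that binds galectins, ran at 6.52, 12.4 and 19.7 CPM in D1 cocaine day 40, 8.40, 33.1 and 73.3 CPM in D1 cocaine day 1, and 24.9, 41.1 and 54.0 CPM in D1 saline, and differed by -1.51 ± 0.37 and -1.69 ± 0.37. With B2m left out, the summed level of the members had a median of 165 CPM in D1 cocaine day 40, 349 CPM in D1 cocaine day 1 and 490 CPM in D1 saline.

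In A2a neurons the day 40 estimates leaned the other way. From cocaine day 1 to day 40, 37 of the 38 estimates lay above 0, with a median of 0.42 (-0.03 to 0.85). Of all genes, 49.9% lay below 0. Members move together across libraries, so their signs are not separate observations, and leaving out single libraries gave medians of 0.21 to 0.58. However, edgeR and DESeq2 called 0 of the 38 in either direction, while edgeR called 0.109% of all genes higher and 0.154% lower. Of the 38, 2 had an unadjusted edgeR p under 0.05, as did 10.5% of all genes. The smallest adjusted p was 0.0948, for Xaf1. Mx1 in A2a neurons had medians of 8.54, 6.42 and 8.71 CPM in saline, cocaine day 1 and cocaine day 40, and Irf7 of 18.3, 14.2 and 25.1 CPM. B2m stood at 342, 363 and 434 CPM and Usp18 at 9.98, 5.32 and 14.8 CPM. For each of these 4 genes the 3 groups overlapped. Single libraries reached far above these medians: A2a saline replicate 1 had 27.0 CPM for Mx1 and 61.2 CPM for Usp18, against lowest libraries of 2.97 and 2.43 CPM in that group. Against A2a saline the day 40 estimates had a median of -0.10, and edgeR and DESeq2 called 0. By edgeR, 0% of all genes were called in either direction. Of the 38, 0 had an unadjusted edgeR p under 0.05, against 5.38% of all genes.

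Cocaine at day 1 was set against saline in each neuron type. In D1 neurons, 31 of 38 estimates lay below 0, where 50.3% of all genes did, with a median of -0.18 (-0.64 to 0.21). None was called by edgeR or DESeq2, 0 had an unadjusted edgeR p under 0.05 (2.33% of all genes had), and 0% of all genes were called. In A2a neurons all 38 estimates lay below 0, where 50.5% of all genes did, with a median of -0.45 (-0.94 to -0.06). Members move together, so these signs are not separate observations. Leaving out single libraries gave medians of -0.60 to -0.24, the last without A2a saline replicate 1. Both edgeR and DESeq2 called 0 of the 38, and the smallest edgeR adjusted p was 0.79, while 0.0706% of all genes were called higher and 0% lower. Of the 38, 3 had an unadjusted edgeR p under 0.05, as did 5.98% of all genes. With the middle number of the description as a term in the day 1 libraries, the medians were -0.17 and -0.46, again with 0 called. The test of whether the cocaine difference itself differed between neuron types called 0 members with either tool. By edgeR, 0% of all genes were called higher and 0.00642% lower. An unadjusted edgeR p under 0.05 was found for 1 member and for 3.35% of all genes.

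The neuron types could be set against each other in each treatment. The day 40 comparison shares its D1 libraries with the contrasts the names came from, so it is not independent of them. In saline animals the median D1 minus A2a difference of the members was -0.08, with 0 called by edgeR or DESeq2, although 4.12% of all genes were called higher in D1 neurons and 4.01% lower. At an unadjusted edgeR p under 0.05 there were 0 members and 19.9% of all genes. After cocaine at day 1 the median was 0.17, and 1 member, Xaf1, was called higher in D1 neurons (5.53% of all genes were). At cocaine day 40 all 38 estimates lay below 0, with a median of -1.58 (-4.10 to -0.22) against -0.01 for all genes, and 33 were called lower, where 10.3% of all genes were called lower and 10.1% higher. In 14 members the 8 D1 libraries all lay below the 8 A2a libraries, which held for 1.61% of all genes. Leaving out each of the 16 libraries in turn gave 31 to 35 calls.

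The names were proposed with these D1 libraries, so the p-values that follow are a description. The largest D1 minus A2a differences at day 40 were those of Mx1, -4.10 ± 0.77 (edgeR quasi-likelihood test, adjusted p = 0.000109), and Usp18, -3.92 ± 0.74 (adjusted p = 0.000132). Mx1 ran at 0.116, 0.427 and 2.00 CPM in D1 and 2.78, 8.71 and 28.7 CPM in A2a neurons, and Usp18 at 0.127, 0.880 and 1.76 CPM and 3.54, 14.8 and 33.0 CPM, without overlap in either gene. Zc3hav1 had the smallest adjusted p, 2.79e-06, at -2.03 ± 0.31, with 2.85 to 4.99 CPM in D1 and 8.56 to 28.3 CPM in A2a neurons. Samd9, with 13.8 to 22.5 CPM against 31.0 to 73.5 CPM, differed by -1.43 ± 0.23 (edgeR adjusted p = 1.26e-05), and B2m, with 138 to 237 CPM against 254 to 538 CPM, by -1.13 ± 0.27 (edgeR adjusted p = 0.00167). In both, every D1 library was below every A2a library, as it was for Rsad2, Tap1, Psmb9 and Irf9. Irf7, at -2.68 ± 0.59 (edgeR adjusted p = 0.000843), and Ifi27l2b, at -3.21 ± 0.56 (edgeR adjusted p = 3.61e-05), were also called, but their groups overlapped through D1 replicate 2, at 14.1 and 3.00 CPM. The members not called were Cmpk2 (-0.22 ± 0.10), Xaf1 (-0.35 ± 0.18), Irf1 (-0.49 ± 0.24), Mx2 (-1.21 ± 0.47) and Oasl (-1.68 ± 0.65), with edgeR adjusted p-values from 0.0592 to 0.178. Trim21 and Ifih1, at -0.90 ± 0.31 and -1.11 ± 0.39, were called but lost the call when some single libraries were left out. By role, 3 of 3 sensors, 5 of 6 transcription factors, 12 of 15 effectors, 6 of 6 modifiers, 4 of 4 antigen-processing genes and 3 of 4 others were called lower.

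**Figure D4:**
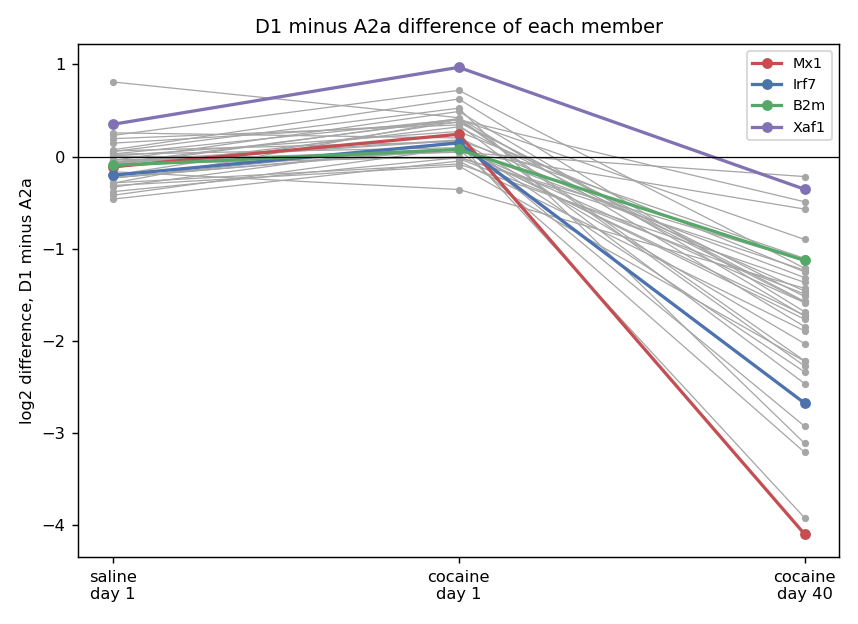
Log2 difference between D1 and A2a neurons (y axis, D1 minus A2a, edgeR estimates) for 38 members (lines) in saline day 1, cocaine day 1 and cocaine day 40 (x axis), with Mx1, Irf7, B2m and Xaf1 in colour. The lines lie near 0 at day 1, with medians of -0.08 and 0.17, and all are below 0 at cocaine day 40, with a median of -1.58.

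The test of whether the day 40 difference itself differed between neuron types called 2 members, Xaf1 and Zc3hav1, where 0.0449% of all genes were called lower and 0.0193% higher. This test holds the D1 day 40 against day 1 values from which the names came, so its p-values are a description. The median over members of this interaction, the D1 day change minus the A2a day change, was -1.87 (-4.34 to -0.26). Mx1 had the largest estimate, -4.34 ± 0.99 (edgeR adjusted p = 0.0598), and was not called. The number called hung on the fit: DESeq2 called 16, the fit on the 4 cocaine groups alone called 0, and leaving out single libraries gave 2 to 10, with 10 without D1 cocaine day 1 replicate 1 or 2. Zc3hav1, at -2.21 ± 0.42 (edgeR adjusted p = 0.0163), stood at medians of 9.76 and 3.23 CPM in D1 neurons at days 1 and 40, and of 7.80 and 12.1 CPM in A2a neurons. Xaf1, a pro-apoptotic factor that binds XIAP in human cells, gave -1.32 ± 0.26 (edgeR adjusted p = 0.0163). Its lowest, median and highest libraries were 5.62, 6.91 and 10.1 CPM in D1 cocaine day 1, 3.16, 4.73 and 6.47 CPM in D1 cocaine day 40, 2.29, 3.42 and 6.73 CPM in A2a cocaine day 1 and 3.92, 5.89 and 9.48 CPM in A2a cocaine day 40. In D1 saline they were 5.32, 6.41 and 7.71 CPM, and in A2a saline 3.37, 5.1 and 7.69 CPM. After cocaine at day 1, Xaf1 was 0.97 ± 0.19 higher in D1 than in A2a neurons (edgeR adjusted p = 0.000209, all 8 D1 libraries above the A2a median). At day 40 the estimate was -0.35 ± 0.18, which was not called, so a reversed order was not shown. The neuron types overlapped on both days.

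The rest of the interferon pathway was read from lists also drawn up with earlier results known. Of 7 ligand genes, 4 had a row, with 7 counts in all 48 libraries for Ifnb1, 14 for Ifng, 7 for Ifnk and 13 for Ifne, so no ligand could be tested at this depth. Of 9 receptor and kinase genes, 0 were called in D1 neurons between days 1 and 40; Ifnar1 stood at 56.7 ± 3.91 CPM (SD, n = 8) at day 1 and 53.7 ± 2.60 CPM at day 40, and Ifnar2 at 14.0 ± 2.46 and 13.7 ± 2.06 CPM. Of 8 genes of signal and negative control, 1 was called lower, Irf8, a factor of myeloid cells, at -0.98 ± 0.26. Of 10 tested genes of upstream sensing, 1 was called lower, Irf5, at -0.84 ± 0.18. Among all genes, 1.16% were called lower and 0.7% higher in D1 neurons between these days. Between D1 and A2a neurons at day 40, edgeR called lower 3 receptor and kinase genes (Ifnlr1, Il10rb and Jak2), the signal genes Irf8, Ptpn6 and Irf2, and 5 sensing genes, and 1 sensing gene higher, Mavs, the adaptor of the RNA sensors (0.35 ± 0.11). In that contrast 10.3% of all genes were called lower and 10.1% higher, so 1 of 10 sensing genes called higher is near the background.

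Of 50 other tested interferon-induced genes, 9 were called lower in D1 neurons from day 1 to day 40 (1.16% of all genes were), with a median of -0.79, and 30 lower in D1 against A2a neurons at day 40 (10.3% of all genes), with a median of -0.92. The 9 were the chemokines Cxcl9, Cxcl10 and Cxcl11, which draw T cells, the GTPases Gbp5 and Ifi47, and Ifi27, Casp4, Slfn2 and Rnf213. Cxcl10 averaged 4.91 ± 4.16 CPM in D1 cocaine day 1 and 0.519 ± 0.522 CPM in D1 cocaine day 40 (SD, n = 8), a log2 difference of -3.27 ± 0.77. Cxcl9 was at the floor of detection at day 40, with 0.123 ± 0.245 CPM against 1.09 ± 0.750 CPM. Cxcl11 had the largest difference of the 9, at -3.88 ± 0.83, but it too was at the floor at day 40. It averaged 0.0777 ± 0.0886 CPM there against 1.10 ± 1.05 CPM at day 1.

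Marker lists of other cells were read in the contrasts of D1 neurons at day 40, first against day 1. In D1 neurons from day 1 to day 40, 1.16% of all genes were called lower, the share to set beside the counts of that contrast. Of the 15 microglial markers, 3 (C1qa, Itgam and Cd68) were called lower. The summed level of the 15 ran at 250 to 438 CPM at day 40 against 259 to 810 CPM at day 1. Estimates lay below 0 for 14 of the 15, with a median of -0.61. Of the markers that define microglia most closely, P2ry12 differed by -0.22 ± 0.24 and Tmem119 by -0.53 ± 0.20, and neither was called. Complement genes were called lower in 3 of 5 (C1r, C1s and C3), with sums of 19.3 to 44.8 CPM against 25.4 to 141 CPM. B and plasma cell markers were called lower in 2 of 6 tested, with sums of 1.19 to 1.92 CPM against 1.22 to 30.3 CPM. Ms4a1, with 111 counts in all 48 libraries, was not tested. It was at 0 in all 8 D1 day 40 libraries and averaged only 0.00636 CPM in D1 cocaine day 1. Class II presentation genes were called in 0 of 6, with a median of -1.77 and sums of 6.62 to 57.9 CPM against 18.3 to 165 CPM. T and NK cell markers summed to 0.556 to 1.68 CPM against 0.529 to 2.85 CPM, with 0 of 4 called. Against D1 saline, edgeR called lower 5 of 15 microglial, 3 of 5 complement and 4 of 6 class II genes (1.53% of all genes). It also called 4 of 6 B and plasma cell markers and 0 of 4 T and NK cell markers. Against A2a neurons at day 40 the counts were 9 of 15, 5 of 5, 6 of 6, 5 of 6 and 1 of 4 (10.3% of all genes). Class II medians in these contrasts were -2.50 and -3.05. The part of these cells in the result was not tested.

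Each marker list was scored as the members were, by the median deviation of its tested genes. Across the 48 libraries, with group means removed, the score of the members went with that of the complement genes (Pearson r 0.837, Spearman rho 0.793), the microglial markers (0.790 and 0.762), class II genes (0.741 and 0.684) and B and plasma cell markers (0.675 and 0.559). Without A2a cocaine day 1 replicate 1 and D1 cocaine day 1 replicate 1, the r values were 0.785, 0.733, 0.665 and 0.595. For T and NK cell markers r was 0.530, for endothelium 0.406, for astrocytes and oligodendrocytes 0.341 and 0.342, for perivascular or blood myeloid markers 0.154, and for D1 and D2/A2a neuron markers -0.04 and 0.11. These values describe libraries that share tissue and depth. Astrocyte, oligodendrocyte and endothelial lists had 0 called genes in D1 neurons between the days, as did the neuron marker lists.

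**Figure D5:**
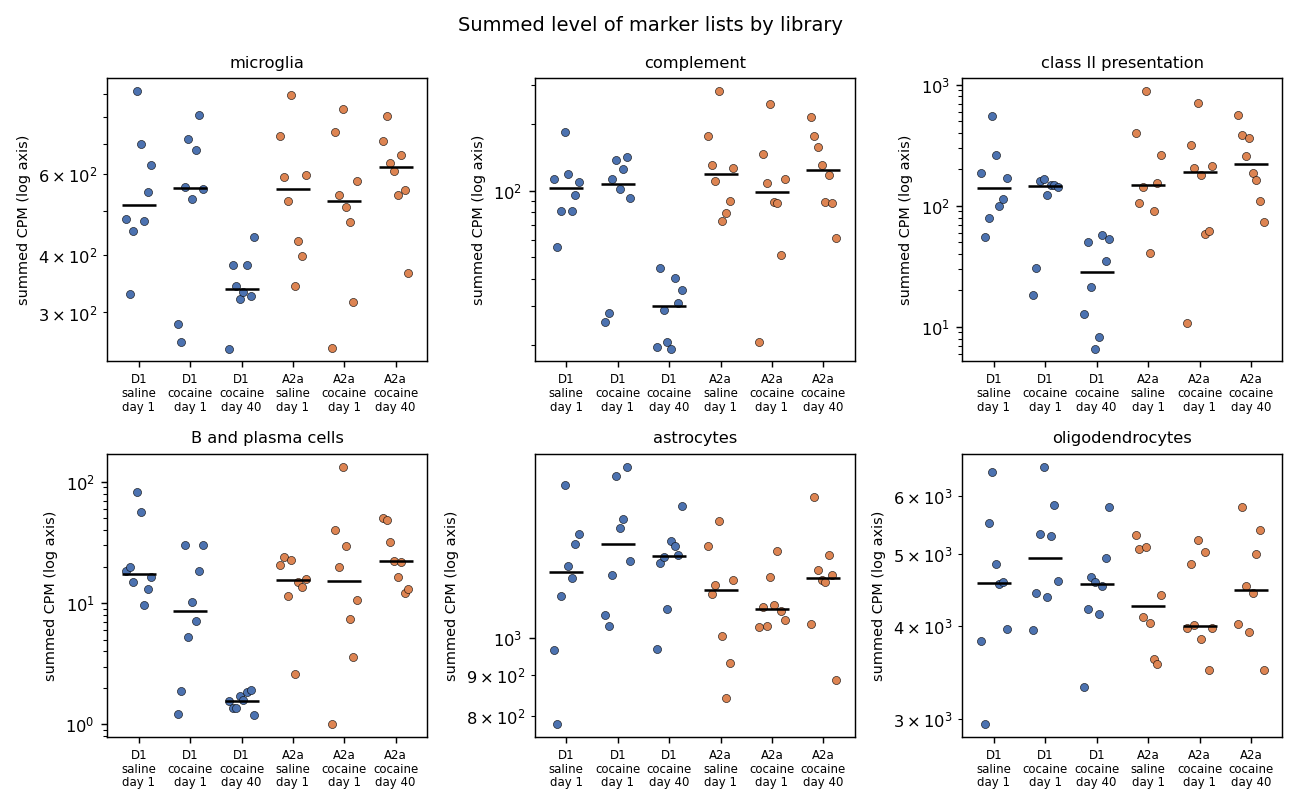
Summed CPM (y axes, log scale) of the marker lists of microglia, complement, class II presentation, B and plasma cells, astrocytes and oligodendrocytes in each library of 6 groups (x axes), D1 in blue and A2a in orange; bars are medians of 8. D1 cocaine day 40 medians are 338, 29.9, 28.1 and 1.56 CPM for the first 4 lists against 560, 107, 146 and 8.65 CPM in D1 cocaine day 1, while those of astrocytes are 1268 and 1312 CPM.

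The genes outside the list whose pattern was most like the score, by Pearson r over 48 libraries after group means among 11706 genes above 1 CPM, were led by RT1-S3, a class I gene (0.926), C1r of complement (0.917) and Grn, which encodes progranulin (0.906). RT1 class I genes are near copies of each other, so their counts are uncertain. RT1-S3 averaged 7.58 CPM in D1 cocaine day 40 and 17.1 to 27.4 CPM in the other groups, C1r 3.35 CPM and 8.04 to 10.7 CPM, and Grn 72.9 CPM and 93.6 to 103 CPM. Fcgr3a, an Fc receptor of myeloid cells and the last of the first 10, had an r of 0.855 and averaged 1.67 CPM against 6.00 to 9.42 CPM.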

How the data were processed

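The values are counts of reads per Ensembl gene, whole numbers that the authors deposited without normalization, with 32883 genes in 48 libraries. The submitters' processing notes name Rnor_6.0 as the genome and SAMtools, STAR, Trimmomatic and bcl2fastq as tools. Their versions, the counter, its strand option and the annotation release were not given in those notes or the labels. Names of genes come from the same deposited table, in which 12500 rows have no name. No gene coordinates are printed, because the reference tables are of another assembly, GRCr8; promoter sequences are RefSeq's on that assembly.

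Values of some genes on the pathway lists are not reported here. Members and lists were chosen with earlier results of these data known. Groups follow the sample titles, and each library was taken as a separate animal, since the protocol counts 48 brains. Among 168 within-group pairs of libraries the lowest chi-square per gene was 9.70 and 0 pairs were identical. Genes were kept by edgeR's expression filter with a minimum count of 10, which left 15580; the 38 members used passed it, 28 of them at or above its 0.265 CPM in every library. A member that passed only through groups where it is high had to differ, so counts over members are descriptions. After TMM scaling (trimmed means of M values), a robust quasi-likelihood fit of the 6 group means used the 48 libraries together (edgeR 4.0.16, limma 3.58.1, R 4.3.3). For each of 11 contrasts, p-values were adjusted by Benjamini-Hochberg across the 15580 genes, and a gene was called at an adjusted p under 0.05. The SE of a log2 change was taken from its F statistic, as the ratio of the change to the root of F. CPM uses the scaled totals, and log2 CPM a prior count of 2. A gene at 1 CPM rests on at least 24.5 counts in 47 libraries. The steps were tested on simulated counts. Alternatives were relative log expression scaling, no filter, a replicate block, only the groups compared, the middle number of the description as a term, DESeq2 1.42.0, and leaving out each library.

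In the D1 groups, the lowest, median and highest libraries were given for the 3 members with the highest mean CPM in each role and for up to 2 with the smallest p in each contrast.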

Additional observations from a re-analysis of the deposited data

Results flagged for a closer look

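In 138 sets of 8 libraries, each a fully described member or the library score in a group, 6 had a library apart from the other 7 by Dixon's 95% criterion on the log2 scale, which chance alone gives in about 1 of 20. Of these, 4 were in D1 cocaine day 40. Ifih1 had 0.053 CPM in replicate 3, where the next lowest library had 0.380. Replicate 1 had the low values of Psmb9, 0.761 CPM next to 2.33, and of Tap1, 1.27 CPM next to 2.13. Zc3hav1 was high in replicate 8, at 4.99 CPM next to 3.58. In D1 saline, Cmpk2 was high in replicate 2, at 37.0 CPM next to 27.9, and Irf1 in replicate 4, at 10.6 CPM next to 6.68.

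The difference between cocaine day 40 and day 1 itself differed between D1 and A2a neurons for Xaf1, by -1.32 on the log2 scale, and for Zc3hav1, by -2.21, in edgeR's interaction test over all genes. That test holds the D1 day 40 against day 1 values from which the names came, so it is not independent of them, and the fit on only the groups compared called 0 members.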

How the results depend on the processing

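No called member changed direction under the alternatives run. Medians of uncalled comparisons that lay near 0 crossed it when single libraries were left out, with -0.27 to 0.15 for A2a day 40 against saline, -0.18 to 0.17 for D1 against A2a in saline, and -0.0022 to 0.48 for the interaction with cocaine. Counts moved most in the interaction of neuron type and day, where 2 members were called lower: DESeq2 called 16 and the fit on only the groups compared called 0, and leaving out single libraries gave 2 to 10 (10 without D1 cocaine day 1 replicate 1 or 2, 9 without A2a cocaine day 1 replicate 4 or 8, 7 without A2a cocaine day 40 replicate 8, 4 without D1 cocaine day 40 replicate 2). For D1 neurons at day 40 against day 1, leaving out libraries gave 8 to 28 calls and a median of -1.51 to -1.26; 8 of the 21 called members were called in every such fit. DESeq2 called 30, no filter 14, and the fit on only the groups compared 14, in which 1 member was not tested. Against D1 saline the leave-one-out range was 24 to 32 calls, with 23 of 31 members called each time, and for D1 against A2a at day 40 it was 31 to 35, with 31 of 33. In A2a neurons from day 1 to day 40, 1 member was called higher without A2a cocaine day 1 replicate 4, against 0 in all. Xaf1 kept its call in D1 against A2a neurons at cocaine day 1 in all 16 such fits.

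Replicate numbers did not pair the samples: same-numbered libraries had deviations with correlations from -0.18 to 0.32, and no pair of groups had all 8 above 0.1. With the replicate block, 18 members were called at D1 day 40 against day 1 (16 of them among the 21), 30 against saline, 33 against A2a neurons and 2 in the interaction. The number of libraries and the counts of members below 1 CPM limit the precision of Ddx58, Dtx3l, Oasl and Sp100.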

Other observations

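The scores of the members also varied with the first number of the sample description in some groups, a value noticed after the data were seen and given as a description over 8 libraries a group. Spearman's rho between score and number was -0.76 in A2a cocaine day 40, 0.71 in D1 cocaine day 1 and 0.64 in A2a cocaine day 1. It was 0.40 in D1 cocaine day 40, 0.24 in D1 saline and -0.29 in A2a saline. What the number stands for is not given in the sources used here.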
